A study of Mus musculus with 48 samples.

Results

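The 2 ends of the mouse small intestine were compared within the same animals: 12 ileum samples were set against 12 duodenum samples, 1 of each from every mouse. These 24 samples of the 48 in the series were chosen by their section labels and paired by the mouse number. The pairs were 7 from mice labelled GermFree, raised without microbes, and 5 from mice labelled ConvR, which the submitters call conventionalized. How and when the ConvR mice came by their microbes is not described. Methylated DNA was captured from sheared genomic DNA with a methyl-CpG-binding domain (the MethylMiner kit) and sequenced, an assay known as MBD-seq, and reads were counted over regions of the mm10 genome. The labels name the tissue only as intestine. Neither the layer of the wall that was taken nor the strain, age and sex of the mice is named there. Every counted region has a name that carries the GermFree label. Captured DNA gives no RNA level, so the section labels were not checked against expressed markers.

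The duodenum receives bile and pancreatic juice and is known as the main site of iron, calcium and folate uptake. The ileum takes back bile acids and absorbs vitamin B12, and more lymphoid tissue lies in its wall. These roles are kept in each section by different sets of transcription factors, and Hox genes set position along the gut tube of the embryo. A methyl-CpG-binding domain holds DNA that carries methyl groups on cytosines followed by guanines (CpG), so the count of a region rises with the methylated DNA it contains. In a piece of intestine with many cell types, more cells that carry the mark and more of the mark per cell cannot be told apart.

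Most gene starts in mice are rich in unmethylated CpG, and the promoters show what was captured and what was not. Of 31396 autosomal promoter windows, which run from 250 bases before to 50 after a gene start, 2805 (8.93%) overlapped a counted region. Among windows with at least the median of 7 CpG, 1284 of 16477 (7.79%) did, and those had a median of 9 CpG against 20 for all such windows. Among windows with fewer, 1521 of 14919 (10.2%) did. The windows shown here are the only ones listed for these genes, with CpG in capitals (the letters CG, which read the same on both strands, counted without overlap). Cubn, the receptor for vitamin B12 bound to intrinsic factor, has 5 CpG in its window (chr2:13491827-13492126, minus strand) and Ms4a15, a membrane-spanning protein of the Ms4a family, has 6 (chr19:10993201-10993500, minus strand), and both overlapped a counted region. Hoxd3 (20 CpG, chr2:74711743-74712042, plus strand), Pdx1 (11 CpG, chr5:147269847-147270146, plus strand) and Cybrd1 (23 CpG, chr2:71117804-71118103, plus strand) had counted regions elsewhere in the gene, described further on, but none over these windows. At least 5 CpG were in 62.4% and at least 11 in 41.9% of all autosomal windows. The sequences are from RefSeq on GRCm38.p6, the assembly with the coordinates of mm10, and are written 5′ to 3′.
Cubn: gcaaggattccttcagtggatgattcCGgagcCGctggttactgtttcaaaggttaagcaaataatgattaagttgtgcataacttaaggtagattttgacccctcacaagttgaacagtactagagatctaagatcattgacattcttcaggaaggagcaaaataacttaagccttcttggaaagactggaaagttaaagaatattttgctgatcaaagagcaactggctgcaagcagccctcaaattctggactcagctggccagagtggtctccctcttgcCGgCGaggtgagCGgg
Ms4a15: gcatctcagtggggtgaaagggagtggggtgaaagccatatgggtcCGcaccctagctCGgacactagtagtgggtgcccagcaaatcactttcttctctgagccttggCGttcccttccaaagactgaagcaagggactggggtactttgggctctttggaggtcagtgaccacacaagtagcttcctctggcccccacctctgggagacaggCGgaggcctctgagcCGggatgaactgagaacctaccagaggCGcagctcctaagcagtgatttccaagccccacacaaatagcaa
Hoxd3: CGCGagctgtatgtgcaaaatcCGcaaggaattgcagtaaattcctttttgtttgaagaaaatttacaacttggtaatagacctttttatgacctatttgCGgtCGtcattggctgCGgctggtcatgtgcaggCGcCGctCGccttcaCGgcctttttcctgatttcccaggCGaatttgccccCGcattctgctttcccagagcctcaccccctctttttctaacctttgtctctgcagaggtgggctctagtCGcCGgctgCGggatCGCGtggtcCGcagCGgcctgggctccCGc
Pdx1: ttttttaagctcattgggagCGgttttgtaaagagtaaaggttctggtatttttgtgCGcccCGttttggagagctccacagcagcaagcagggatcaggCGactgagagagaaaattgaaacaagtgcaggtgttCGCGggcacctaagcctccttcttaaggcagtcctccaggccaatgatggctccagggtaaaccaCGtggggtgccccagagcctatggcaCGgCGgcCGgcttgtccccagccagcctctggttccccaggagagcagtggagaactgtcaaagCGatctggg
Cybrd1: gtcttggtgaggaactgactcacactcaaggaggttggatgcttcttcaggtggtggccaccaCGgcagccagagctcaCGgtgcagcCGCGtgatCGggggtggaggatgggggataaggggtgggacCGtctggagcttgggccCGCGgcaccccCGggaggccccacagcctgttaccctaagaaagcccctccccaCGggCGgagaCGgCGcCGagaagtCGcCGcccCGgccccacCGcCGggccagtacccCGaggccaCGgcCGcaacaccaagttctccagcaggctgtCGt
The region over the Cubn window (chr2:13489168-13492056) held 12.3, 16.2 and 18.6 CPM (lowest, median and highest of 12 ileum samples) against 14.2, 17.6 and 19.8 CPM in the duodenum. CPM are counts scaled to a common sample total, with TMM factors. The 2 sections overlapped over most of their range, with a log2 difference, ileum minus duodenum, of -0.11 (SE 0.10; edgeR adjusted p = 1.0). Over all 2422 tested regions that overlap a promoter window, 0 passed the test and 111 (4.58%) had an unadjusted p under 0.05, with a median log2 difference of 0.003.

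Of 95882 regions in the deposited table, 94535 lay on autosomes, with a median width of 1206 bp, and 66588 of these (70.437%) overlapped an annotated gene. Ileum samples held 1007560 to 2949790 counts (median 2282400) and duodenum samples 1227571 to 3033782 (median 2041171). The median region held 7 to 22 counts in the ileum and 9 to 23 in the duodenum, which limits what a single region can show. Correlations between samples (log CPM over regions) ran from 0.725 to 0.881 between an ileum and a duodenum sample, with a median of 0.84, and from 0.735 to 0.885 within a section, with a median of 0.841. ConvR mice 1 and 3 stood apart at a region in the predicted gene Gm34259 (chr17:4625871-4626954): it held 129 and 62.2 CPM in their ileum, where the other 10 mice had 3.08 to 18.7 CPM, and 136 and 109 CPM in their duodenum, where the others had 3.41 to 27.7 CPM. The log2 difference at Gm34259 was -0.45 (SE 0.11; edgeR adjusted p = 0.421). Without these 2 mice no region of the whole comparison passed either (smallest adjusted p 0.119).

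No autosomal region differed between ileum and duodenum at an adjusted p under 0.05. With the mouse as a block, 94490 regions were tested with edgeR's quasi-likelihood test and 0 (0%) passed, and the smallest Benjamini-Hochberg adjusted p was 0.0833. At an unadjusted p under 0.05 there were 4635 regions (4.91%), 2270 (2.4%) higher and 2365 (2.5%) lower in the ileum. That share is no larger than a cut-off of 0.05 gives when no region differs. DESeq2 called 0 regions and had 953 of 94490 at an unadjusted p under 0.05. That is far fewer than with edgeR, so DESeq2 was the stricter test here and its 0 calls add little. Leaving out GermFree mouse 2 or GermFree mouse 5 gave 1 call each, at Ankrd33b and Hoxd3, and both regions passed in a fit over all 48 samples without the mouse as a block.

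The estimates were narrow enough to bound most regions. The median log2 difference was 0.00042, and the middle 90% of regions lay between -0.27 and 0.27. TMM scaling places the bulk of regions near 0, so that median is set by the scaling. A shift shared by most regions could not be seen, and the bounds below are relative to that scaling. The 95% confidence interval of the difference lay inside 2-fold in either direction at 94301 regions (99.8%) and inside 1.5-fold at 79030 (83.6%). These intervals hold for each region on its own and are not widened for the number of regions. The point estimate passed 2-fold at 1 region and 1.5-fold at 185 (0.196%). Counts were higher in the ileum of all 12 mice at 22 regions (0.0233%) and higher in the duodenum of all 12 at 25 (0.0265%). With no difference between sections, 12 pairs agree in 1 direction or the other with a probability of 0.000488. The 2 shares together are close to that rate, so agreement of all 12 mice does not mark out a region by itself. Counts were also summed over all regions of a gene: of 30109 genes 0 (0%) passed, 1536 (5.1%) had an unadjusted p under 0.05, 736 (2.44%) higher and 800 (2.66%) lower, and the interval of 30092 (99.9%) lay inside 2-fold.

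**Figure D1:**
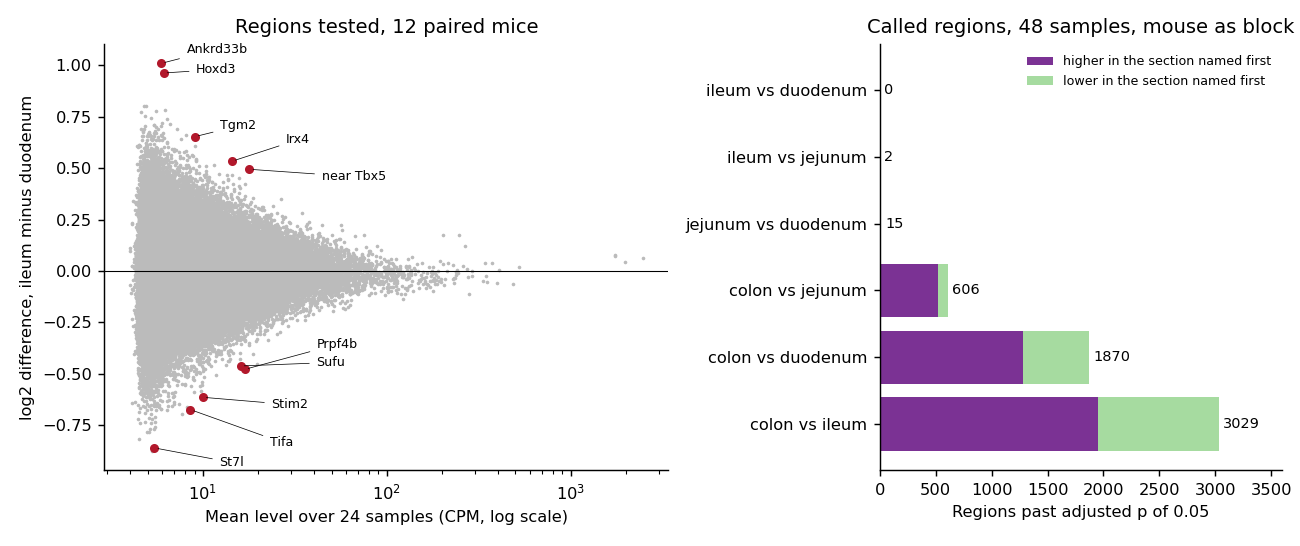
Left, log2 difference (ileum minus duodenum, 12 paired mice) against the mean level in CPM on a log scale, with 1 point per region and the 10 regions of smallest p in red. Right, number of regions past an adjusted p of 0.05 for each pair of sections in a fit over 48 samples with the mouse as a block: 0 for ileum against duodenum and 3029 for colon against ileum.

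As no region passed, the 5 with the smallest p in each direction are described, and none of them is a called difference between ileum and duodenum. The region with the smallest p lies inside Ankrd33b, a gene for an ankyrin repeat protein (chr15:31297196-31297989, 69.8 kb from the gene's start). It held 3.45, 6.34 and 10.2 CPM (lowest, median and highest) in the ileum against 1.42, 3.51 and 5.07 CPM in the duodenum. The sections overlapped between 3.45 and 5.07 CPM, and the ileum was higher in 11 of 12 mice. The log2 difference was 1.01 (SE 0.20; adjusted p = 0.0833). Leaving out GermFree mouse 2 brought it to 1.09 with an adjusted p of 0.0254, and over 25 alternatives the adjusted p ran from 0.0254 to 1.0. Jejunum samples held a median of 6.43 CPM and colon samples 5.43 CPM, and in the fit of 48 samples with the mouse as a block the log2 difference of jejunum and duodenum was 0.92 (adjusted p = 0.0445). That value rests on the same duodenum samples that helped to pick the region, so it is a description.

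The second region lies at the end of Hoxd3, a homeobox gene of the HoxD cluster (chr2:74747475-74748165), 0.106 kb before the annotated 3′ end and 35.5 kb from the start whose sequence is shown above. The annotated genes Haglr and Gm14424 also lie at this region or within 5 kb of it. Ileum samples held 4.31, 6.84 and 9.72 CPM and duodenum samples 1.12, 3.05 and 6.16 CPM (lowest, median and highest). All but 1 mouse were higher in the ileum, and the sections overlapped between 4.31 and 6.16 CPM. The log2 difference was 0.96 (SE 0.20; adjusted p = 0.101), and 1.13 with an adjusted p of 0.0162 without GermFree mouse 5. The range of its adjusted p over 25 alternatives was 0.0162 to 1.0. Jejunum and colon medians were 6.1 and 5.48 CPM, beside ileum and duodenum values for which the region was picked.

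Hox genes set position along the body and gut axis, and 7 of 39 had a tested region, 5 regions in all. A second region in Hoxd3 (chr2:74739539-74739972) had medians of 3.47 CPM in the ileum and 2.84 CPM in the duodenum (log2 0.52, 95% interval 0.05 to 0.99; adjusted p = 1.0), higher in the ileum of 7 mice and lower in 5. A region inside the long Hoxd3 gene, with Hoxd4 and Mir10b at or within 5 kb of it (chr2:74726958-74728282), gave a log2 of 0.35 (-0.02 to 0.71). In the HoxA cluster, a region in Hoxa2 gave 0.04 (-0.35 to 0.42) and one in Hoxa3 gave -0.25 (-0.62 to 0.13). The 3 regions of Hoxd3 had positive estimates, but 1 of them was picked above for its small p in that direction. The other 2 were higher in the ileum of 7 mice and lower in 5 each, and the HoxA pair did not share a direction. Of the 5 regions 2 had an unadjusted p under 0.05, the picked one included, and both count among the 2270 (2.4%) higher of all regions.

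The other 3 regions higher in the ileum by estimate had smaller differences. A region outside genes (chr5:119741947-119744987), 51.5 kb from Tbx5, a T-box factor of heart and forelimb, held 12.6, 20.6 and 24.1 CPM in the ileum against 8.44, 14.3 and 19.9 CPM in the duodenum. Its ileum was higher in 11 of 12 mice (log2 0.49, SE 0.11; adjusted p = 0.136). In Irx4, an Iroquois homeobox gene of the heart ventricle, a region 2.25 kb from the start (chr13:73262742-73265002) held 9.48, 15.3 and 20.5 CPM in the ileum against 5.92, 10.8 and 15 CPM in the duodenum. All 12 mice were higher in the ileum, although the ranges of the sections overlapped (log2 0.53, SE 0.12; adjusted p = 0.21). Tgm2 encodes transglutaminase, the protein cross-linking enzyme that is the autoantigen of coeliac disease, and its region (chr2:158116479-158117829) held 7.56, 9.77 and 14.2 CPM in the ileum against 4.88, 6.21 and 8.22 CPM in the duodenum. Here too all 12 mice were higher in the ileum, and the sections overlapped only between 7.56 and 8.22 CPM (log2 0.65, SE 0.15; adjusted p = 0.392).

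Among regions lower in the ileum by estimate, the smallest p was at the end of Prpf4b, which encodes a kinase of pre-mRNA splicing (chr13:34903239-34906403). Ileum samples held 7.76, 12.1 and 22.1 CPM and duodenum samples 10.3, 19.2 and 24.5 CPM. The ileum was lower in 10 of 12 mice (log2 -0.48, SE 0.11; adjusted p = 0.36), with wide overlap. Stim2 encodes a calcium sensor of the endoplasmic reticulum, and its region (chr5:54040710-54042445) held 3.81, 7.61 and 10.3 CPM in the ileum against 6.77, 10.4 and 17.4 CPM in the duodenum. It was lower in the ileum of 10 of 12 mice, 7 of 7 GermFree and 3 of 5 ConvR (log2 -0.61, SE 0.15; adjusted p = 0.421). Tifa, an adaptor of the innate response to bacterial sugars, had 2.11, 5.54 and 11.1 CPM in the ileum against 3.3, 10 and 12.2 CPM in the duodenum at chr3:127796440-127797526. Its ileum was lower in 9 of 12 mice (log2 -0.67, SE 0.16; adjusted p = 0.421).

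The last of the 5 lower ones were in St7l and Sufu. The St7l region (chr3:104879666-104880147) was the lowest in level, with 1.84, 2.98 and 6.29 CPM in the ileum against 3.71, 5.76 and 9.3 CPM in the duodenum. It was lower in the ileum of 11 of 12 mice and had the estimate farthest from 0 of the 5 (log2 -0.86, SE 0.21; adjusted p = 0.421). Sufu encodes the repressor of Hedgehog signalling, and its region (chr19:46477603-46480734) held 8.23, 12.2 and 27.4 CPM in the ileum against 13.1, 17.7 and 25.5 CPM in the duodenum. Sufu was lower in the ileum of 10 of 12 mice, 7 of 7 GermFree and 3 of 5 ConvR (log2 -0.46, SE 0.11; adjusted p = 0.421). Across every alternative run, none of the 10 regions changed direction, and only Ankrd33b and Hoxd3 passed in any.

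**Figure D2:**
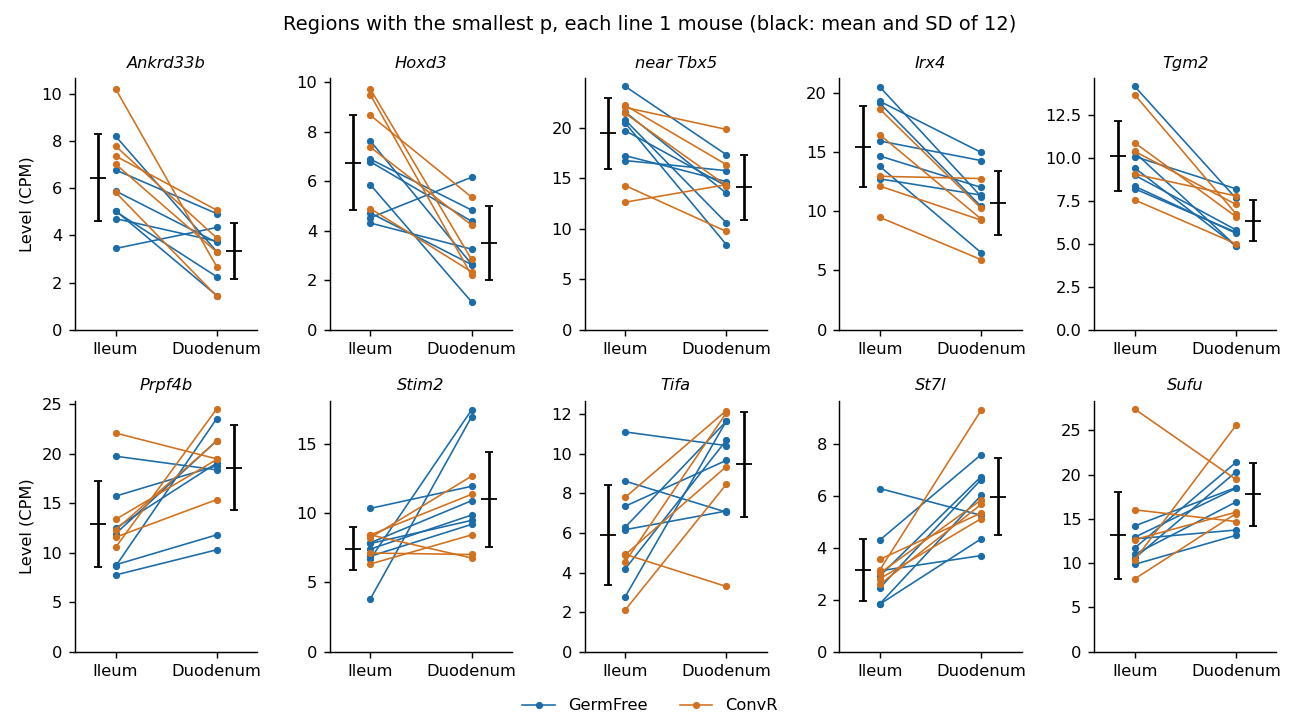
Level in CPM of the 10 regions with the smallest p, in ileum (left) and duodenum (right) of each mouse, joined by a line, with GermFree mice in blue and ConvR mice in orange and the mean and SD of 12 mice in black. At Irx4 and Tgm2 all 12 lines fall towards the duodenum, and at Prpf4b 10 of 12 rise towards it.

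Genes known to be used at one end of the small intestine were read by the sum of counts over their regions. Of 15 genes of the proximal end, 12 had a tested region, and of 13 of the distal end, 10 did. Fabp1, Gip, Sct, Osr2, Nts and Insl5 had none. None of the 30 proximal and 23 distal regions passed the test, and 4 proximal and 0 distal ones had an unadjusted p under 0.05. The genes were chosen with the main result known, so counts over them are a description. Of the 12 proximal sums 11 had an estimate above 0, meaning more captured DNA in the ileum, with a median log2 of 0.14, and 4 intervals lay above 0. Of the 10 distal sums 3 were above 0, with a median of -0.03 and no interval clear of 0. Over all 30109 gene sums, 49.5% were above 0, 2.44% were higher at an unadjusted p under 0.05, and the median was -0.00088.

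A sum takes in regions within 5 kb of a gene. The only regions of Slc10a2, Slc51a and Pyy lie outside these genes, 2045 bp away in Gm5739, 305 bp away in Pcyt1a and 2756 bp away near Ppy. Regions outside the gene, some of them in a neighbour, also enter the sums of Slc11a2, Lct, Trpv6, Muc6, Gata4, Apoa4, Slc51b, Amn and Gcg, and the Slc46a1 region also overlaps Sarm1.

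The genes of iron uptake and export come first. Slc11a2, the importer of ferrous iron, summed 5 regions, 1 of them in the neighbouring Higd1c, and held 103, 114 and 129 CPM (lowest, median and highest) in the ileum against 93.3, 106 and 116 CPM in the duodenum. Its ileum was higher in 10 of 12 mice, with a log2 difference of 0.15 (95% interval 0.07 to 0.23). The widest of its regions (chr15:100388884-100400008) was higher in the ileum of all 12 mice (log2 0.22, 0.09 to 0.35; adjusted p = 0.797). Cybrd1, the ferric reductase of the brush border, had 32.5, 42.7 and 48.1 CPM in the ileum against 31.3, 37.4 and 42.4 CPM in the duodenum (log2 0.19, 0.05 to 0.33), higher in 9 of 12 mice. Its nearer region (chr2:71119375-71121228) begins 1.32 kb from the start whose sequence is shown. Slc40a1, the iron exporter ferroportin, rested on 1 region of low level, with medians of 4.2 CPM in the ileum and 4.05 CPM in the duodenum (log2 0.13, -0.29 to 0.56).

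Slc46a1, the proton-coupled folate transporter, had 19.9, 26.2 and 34.5 CPM in the ileum against 16.3, 23.2 and 27.5 CPM in the duodenum (log2 0.16, -0.01 to 0.34). The ileum was higher in 10 of 12 mice, 5 of 7 GermFree and 5 of 5 ConvR. Trpv6, the calcium channel of calcium uptake, had medians of 34.5 CPM in the ileum and 33.4 CPM in the duodenum, with wide overlap (log2 0.04, -0.11 to 0.18). Apoa4, an apolipoprotein of chylomicrons, had 8.43, 12.2 and 15.9 CPM in the ileum against 6.82, 9.83 and 13.5 CPM in the duodenum. It was higher in the ileum of 11 of 12 mice (log2 0.29, 0.04 to 0.55), and of its 2 regions the one inside the gene (chr9:46242230-46242770) had the larger estimate (0.55, 0.14 to 0.97; adjusted p = 1.0) and the one outside it 0.13 (-0.21 to 0.46). Lct, the gene of lactase, held 75.4 CPM as its ileum median and 73.6 CPM as its duodenum median, and its interval was narrow around 0 (log2 0.02, -0.08 to 0.12).

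Pdx1, the homeodomain factor of duodenum and pancreas, had 1 region, 2.11 kb from its start (chr5:147272206-147273119). It held 2.59, 5.84 and 8.91 CPM in the ileum against 1.13, 4.63 and 7.31 CPM in the duodenum. Its ileum was higher in 4 of 7 GermFree and 5 of 5 ConvR mice, with a log2 of 0.46 (0.06 to 0.87) and an adjusted p of 1.0 for the region. Without GermFree mouse 6 the log2 difference of Pdx1 was 0.27. Gata4, the zinc finger factor of the proximal small intestine, gave 0.03 (-0.14 to 0.20) over 4 regions, and Onecut2, another duodenal factor, gave -0.08 (-0.29 to 0.12). The hormone cholecystokinin, Cck, gave 0.15 (-0.13 to 0.43) and Muc6, a mucin of the Brunner glands of the duodenum, gave 0.07 (-0.05 to 0.19).

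Among the bile acid genes of the ileum, no interval was clear of 0. The region near Slc10a2, the importer of bile acids, held 7.86, 11.2 and 15.2 CPM in the ileum against 6.02, 11.6 and 15.6 CPM in the duodenum (log2 -0.01, -0.27 to 0.25). Fabp6, which binds bile acids in the cell, gave -0.01 (-0.25 to 0.23), and the exporter subunits Slc51a and Slc51b gave 0.01 (-0.27 to 0.29) and -0.14 (-0.35 to 0.07). Fgf15, the hormone that signals bile acid uptake to the liver, had medians of 9.76 CPM in the ileum and 7.78 CPM in the duodenum (log2 0.23, -0.07 to 0.52). Nr1h4, which encodes the bile acid receptor FXR, had 20.1, 25.5 and 29.8 CPM in the ileum against 23.3, 27.3 and 32.7 CPM in the duodenum. Nr1h4 was lower in the ileum of 10 of 12 mice, 7 of 7 GermFree and 3 of 5 ConvR, by an estimate whose interval held 0 (log2 -0.14, -0.30 to 0.02).

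The vitamin B12 receptor Cubn, over 8 regions, gave -0.04 (-0.14 to 0.06), and its partner Amn gave -0.07 (-0.30 to 0.17). The peptide hormones Pyy and Gcg, made by L cells of the distal gut, gave -0.12 (-0.54 to 0.30) and 0.12 (-0.10 to 0.34). No distal sum had an interval that reached below -0.54 or above 0.52.

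**Figure D3:**
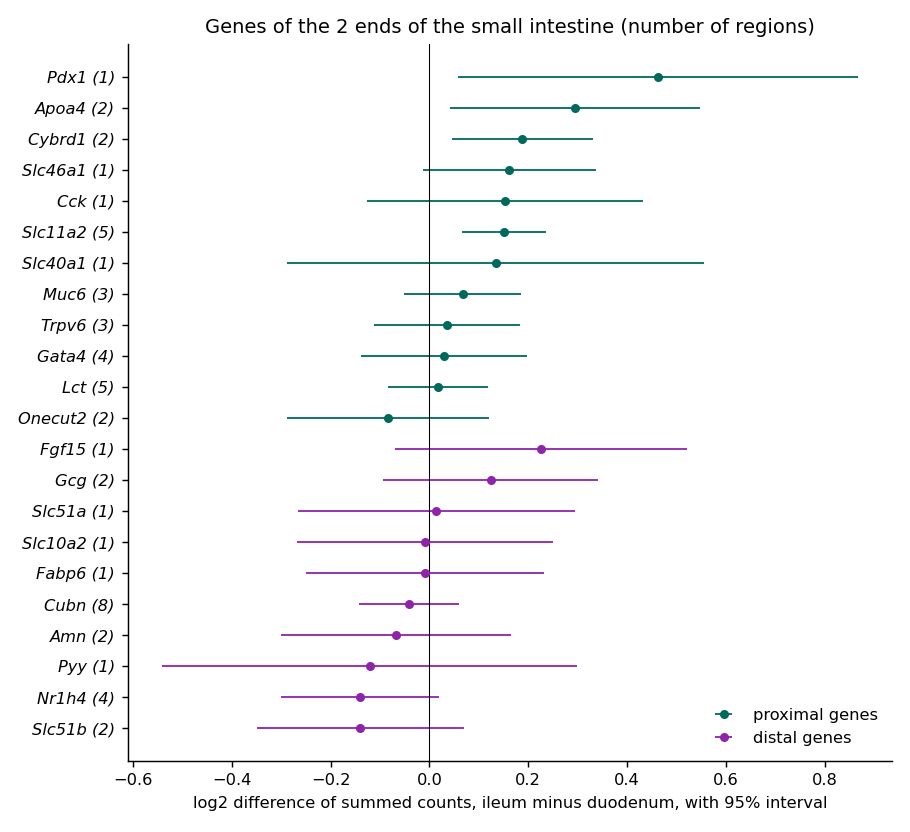
log2 difference of summed counts, ileum minus duodenum, with its 95% interval, for 12 genes of the proximal (green) and 10 of the distal small intestine (purple), with the number of regions after the name. The intervals of Pdx1, Apoa4, Cybrd1 and Slc11a2 lie above 0, and those of all distal genes include 0.

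In 25 lists of genes for absorption, cell types and regulators, 698 of 700 genes matched by symbol, 528 had a tested region, and 0 of 2443 regions passed. At an unadjusted p under 0.05 there were 119 (4.87%), beside 4.91% of all regions. In the 24 lists with over 20 regions, the median log2 difference lay between -0.03 and 0.04, beside 0.00042 over all regions. Iron, calcium and folate absorption had 5 of 75 regions at that p, bile acid and vitamin B12 uptake 1 of 83, and fat absorption 6 of 119. Regional transcription factors of the gut had 10 of 178, 5 higher and 5 lower in the ileum, and 5 of those lie in Zfhx3, 2 higher and 3 lower. Xenobiotic metabolism had 0 of 49 and peptide and amino acid absorption 1 of 81. Retinoic acid signalling, which patterns the gut and imprints gut homing on lymphocytes, had 6 of 79 (7.59%), 4 higher and 2 lower. The members named from the lists were chosen after their values were seen.

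Lists of other cells that a piece of intestine holds were read the same way. B cells and plasma cells, common in the lymphoid tissue of the ileum, had the highest share among the 24 lists with over 20 regions. That share was 19 of 223 (8.52%), beside 4.91% of all regions. Of the 19, 11 were higher and 8 lower in the ileum, and the median log2 of the list was 0.02. Several of these regions share a gene: 6 lie in Bach2, a repressor of plasma cell fate, 4 of them higher and 2 lower. The smallest p was in Ikzf3, the lymphocyte factor Aiolos (chr11:98496521-98499460), with medians of 17.8 CPM in the ileum and 13.4 CPM in the duodenum (log2 0.42, SE 0.11; adjusted p = 0.508). A Bach2 region (chr4:32338926-32340432) had medians of 5.87 CPM in the ileum and 10.1 CPM in the duodenum (log2 -0.58, SE 0.15; adjusted p = 0.508). T and natural killer cells had 14 of 226 (6.19%) and smooth muscle and fibroblasts 7 of 143 (4.9%). Enteric neurons and glia had 8 of 137 (5.84%), endothelium 2 of 131 (1.53%) and exocrine pancreas 1 of 50 (2.0%). The stomach list had 6 of 94 (6.38%), 1 higher and 5 lower in the ileum by estimate. All 5 lower ones lie in Esrrg, an orphan nuclear receptor, and the higher one lies in Esrrb. The part of cell make-up in any value was not tested.

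The same comparison was made in each model. In GermFree mice 0 of 92884 regions passed (0%), with 4362 (4.7%) at an unadjusted p under 0.05, 2213 (2.38%) higher and 2149 (2.31%) lower, and a smallest adjusted p of 0.999. In ConvR mice 0 of 92648 passed (0%), with 4132 (4.46%) at that p, 2105 (2.27%) higher and 2027 (2.19%) lower, and a smallest adjusted p of 0.443. DESeq2 was not run in each model alone. Whether the difference between sections itself differed between the models was asked with a section by model term. It passed at 0 of 94490 regions (0%), with 4174 (4.42%) at an unadjusted p under 0.05 and a smallest adjusted p of 1.0. Its estimate was above 0 at 2007 (2.12%) of these regions and below 0 at 2167 (2.29%). DESeq2 called 0 regions with 728 at that p, again far fewer than edgeR, so its 0 calls add little. The median SE of that term was 0.32 on the log2 scale, against 0.16 for the difference between sections itself.

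The 3 regions with the smallest p for the term are described, none of which passed. Arl10 encodes a small GTPase of the Arf-like family, and its region (chr13:54577251-54578906) held 7.4, 13 and 15.9 CPM in the GermFree ileum against 6.75, 8.76 and 13.2 CPM in the GermFree duodenum. In ConvR mice the same region held 7.38, 8.23 and 10.2 CPM in the ileum against 12.8, 13.7 and 19.0 CPM in the duodenum, with no overlap. The log2 difference between sections was 0.36 in GermFree and -0.79 in ConvR mice, and the term was 1.15 (SE 0.26; adjusted p = 1.0).

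At the region over the start of Ms4a15 (chr19:10993045-10993506), whose sequence is shown above, GermFree mice had medians of 4.72 CPM in the ileum and 2.9 CPM in the duodenum, and ConvR mice 2.81 CPM in the ileum and 6.96 CPM in the duodenum. The ileum was higher in 5 of 7 GermFree and 0 of 5 ConvR mice, and the term was 1.76 (SE 0.42; adjusted p = 1.0). Srd5a1, a steroid reductase that makes dihydrotestosterone, went the other way at chr13:69599230-69601497: GermFree medians were 9.87 CPM in the ileum and 13.2 CPM in the duodenum, and ConvR medians 13.9 CPM in the ileum and 8.68 CPM in the duodenum. The term was -1.06 (SE 0.26; adjusted p = 1.0). Of the regions described above as lower in the ileum, Stim2 had a term of -0.52 (SE 0.30) and Sufu of -0.23 (SE 0.23). Neither passed. At Ankrd33b and Hoxd3 the section differences were 0.77 and 0.70 in GermFree and 1.31 and 1.30 in ConvR mice, with terms of -0.55 (SE 0.42) and -0.60 (SE 0.41) that did not pass (adjusted p = 1.0 each).

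Set beside the other pairs of sections, in a fit over 48 samples with the mouse as a block, few regions passed within the small intestine. Of 94534 regions, ileum against duodenum had 0 past the threshold (0%), and ileum against jejunum had 2 (0.00212%), both higher. Jejunum against duodenum had 15 (0.0159%), 1 higher (0.00106%) and 14 lower (0.0148%). Colon against jejunum had 606 (0.641%), 519 higher (0.549%) and 87 lower (0.092%). Colon against duodenum had 1870 (1.98%), 1281 higher (1.36%) and 589 lower (0.623%), and colon against ileum 3029 (3.2%), 1953 higher (2.07%) and 1076 lower (1.14%). These fits share samples and a single estimate of the spread, so the counts are given side by side and their difference was not tested. The 95% interval of colon against ileum lay inside 1.5-fold at 69399 regions (73.4%), and the point estimate passed 1.5-fold at 1163 (1.23%). Of the 10 regions described above, 5 passed between colon and ileum: the region near Tbx5 (log2 -0.34; adjusted p = 0.044) and Irx4 (-0.39; 0.0397) were lower in the colon, and Prpf4b (0.41; 0.0227), Stim2 (0.60; 0.00654) and Sufu (0.42; 0.0185) were higher. St7l was lower in the colon than in the duodenum (log2 -0.70; adjusted p = 0.0451). These regions were picked for their ileum and duodenum values, which both sets of comparisons share.

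Regions that changed between colon and jejunum, sections outside this comparison, were then read in ileum and duodenum. The fit of those 24 samples called 365 regions higher and 59 lower in the colon. Summed over the 365, the level was 15150 ± 2840 CPM in the ileum, 15290 ± 3200 CPM in the duodenum, 15530 ± 1730 CPM in the jejunum and 19730 ± 3120 CPM in the colon (SD, n = 12 each), and 6 of 12 mice were higher in the ileum than in the duodenum. The median log2 difference of these regions was -0.04 between ileum and duodenum, against 0.37 between colon and jejunum, and 124 (34.0%) were higher in the ileum, beside 50.1% of all regions. The 59 regions lower in the colon summed to 786.5 ± 76.3 CPM in the ileum, 780.0 ± 76.2 CPM in the duodenum, 832.3 ± 46.6 CPM in the jejunum and 586.6 ± 71.7 CPM in the colon. Of these, 34 (57.6%) were higher in the ileum, with a median log2 difference of 0.03. The 4 sections of a mouse share that mouse, so these are values beside each other and not independent samples.

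No kind of region took a share of captured DNA that differed between the 2 sections at the threshold. Gene bodies held 71.1 ± 0.349% of counts in the ileum and 71.1 ± 0.421% in the duodenum (SD, n = 12), and regions outside genes 24.8 ± 0.258% in the ileum and 24.7 ± 0.316% in the duodenum. For promoter windows, here and below, the counts are those of whole regions that overlap a window, which can reach beyond it. Regions over windows rich in CpG held 1.92 ± 0.0258% in the ileum and 1.90 ± 0.0197% in the duodenum. This difference of 0.0136 percentage points was positive in 9 of 12 mice. Regions over windows poor in CpG held 2.25 ± 0.101% in the ileum and 2.27 ± 0.115% in the duodenum. Those of 5 kb or more held 20.7 ± 0.67% in the ileum and 20.7 ± 0.651% in the duodenum. The 10% of regions with the densest capture in jejunum and colon held 8.24 ± 0.578% in the ileum and 8.23 ± 0.526% in the duodenum, against 8.67 ± 0.39% in the jejunum and 9.27 ± 0.552% in the colon, whose own values chose these regions. An exact 2-sided sign-flip permutation test over the 4096 sign patterns of 12 pairs, whose smallest p is 0.000488, gave adjusted p of 0.756 to 0.964 for the 6 shares. No paired difference of a share differed between GermFree and ConvR mice at the threshold by an exact permutation test over 792 relabellings (adjusted p 0.854 to 0.962).

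**Figure D4:**
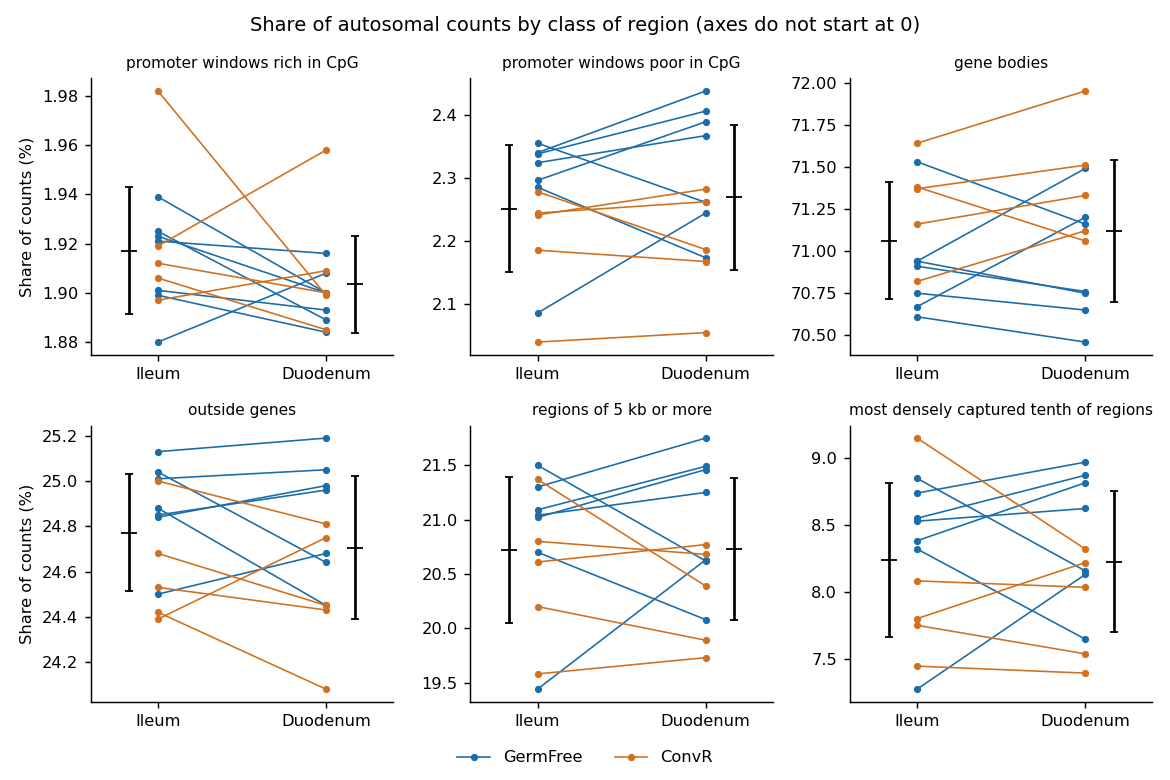
Share of autosomal counts (percent) in 6 kinds of region, in ileum (left) and duodenum (right) of each mouse, joined by a line, with GermFree mice in blue, ConvR mice in orange and the mean and SD of 12 mice in black; the axes do not start at 0. Lines run in both directions in every panel, and regions over promoter windows rich in CpG were higher in the ileum of 9 of 12 mice.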

How the data were processed

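Methylated DNA was captured from the 4 sections of 12 mice and sequenced as 48 samples, with 100-bp single reads from fragments of about 250 bp, per the labels' protocols. Per the submitters' processing notes, Trim Galore 0.3.7, cutadapt 1.4.2, MACS2 and featureCounts were used with mm10. Which aligner was used, whether samples were pooled to call peaks, and how duplicate and multi-mapping reads were treated is not stated in those sources. The deposited count table gives whole-number counts for each region, with no normalisation. The deposited peak list holds positions and a score for each region, the authors' value, used only to filter regions in alternatives. Each region's name carries the GermFree label.

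Regions were assigned to RefSeq genes of GRCm38.p6 that they overlap or lie within 5 kb of. Autosomal counts were tested with edgeR 4.0.16 under R 4.3.3, with limma 3.58.1. Regions passed its default filter (minimum count 10), were scaled by TMM, and were fitted with a trended dispersion and the quasi-likelihood F-test. The p-values were adjusted by Benjamini-Hochberg over all tested regions, with a threshold of 0.05. The 95% intervals are from the unshrunken coefficient and the test's F value. The model had the mouse as a block, which also takes up the code in the sample titles. The mouse number in the labels gives the pairing. The deviations of same-mouse samples from their group means had correlations of -0.00333 to 0.129 (median 0.0234), 2 of 12 over 0.1. By these correlations, 3 of 12 ileum samples were most like their own mouse's duodenum sample among those of the same model. The pairing therefore rests on the labels. Levels are TMM-scaled CPM computed from the counts. Intervals cover single regions only.

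Named regions were those past the threshold, and, where fewer than 5 passed in a direction, the 5 with the smallest p, with 3 for the section by model term. The comparison, lists and genes were chosen with earlier results of these data known. The genes of the 2 ends and the per-gene sums were added after the main result was seen. A further gene considered for the distal end is not reported here. Alternatives were DESeq2 1.42.0, other scalings and filters, designs without the block, each model alone and each mouse left out. Shares, lists and plots were made in Python 3.11.15 with SciPy 1.17.1, pandas 2.3.3, Matplotlib 3.10.9 and NumPy 2.4.6. The edgeR and permutation steps were tested on simulated data. Tests of shares were exact permutation tests.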

Additional observations from a re-analysis of the deposited data

Results flagged for a closer look

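In 76 groups of 5 or 7 samples, 9 held a sample farther from the others than Dixon's 95% critical value allows. Chance gives about 1 in 20 for independent groups. These groups share samples, their shares overlap and their regions were picked for small p, so the 9 cannot be set against that rate. At the Tgm2 region the ileum of GermFree mouse 7 held 14.2 CPM, against 10.3 CPM in the next highest. The Prpf4b region held 22.1 CPM in the ileum of ConvR mouse 4 (next highest 13.4). In the duodenum of ConvR mouse 1 the St7l region held 9.3 CPM (next highest 5.85). The Srd5a1 region held 6.57 CPM in the duodenum of GermFree mouse 7 (next lowest 11.9). Promoter windows rich in CpG took 1.98% of counts in the ileum of ConvR mouse 2 (next highest 1.92%). The ileum of GermFree mouse 4 was apart in 4 shares: 2.08% in promoter windows poor in CpG (next lowest 2.29%), 71.5% in gene bodies (next highest 70.9%), 19.4% in regions of 5 kb or more (next lowest 20.7%) and 7.27% in the most densely captured 10% of regions (next lowest 8.32%). Without GermFree mouse 4 no region passed in the comparison of sections (smallest adjusted p 0.106).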

How the results depend on the processing

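The comparison of all regions had 0 calls in 25 of 28 alternatives. The exceptions were 1 call without GermFree mouse 2 and 1 without GermFree mouse 5 (0 to 1 over the 12 mice left out in turn), and 2 calls with no replicate block over 48 samples in 8 groups. With no replicate block and the model as a covariate there were 0 calls of 84601 regions, and with the replicate block over 48 samples 0. Counts summed per gene had 0 to 3 calls over the 12 mice left out: without GermFree mouse 5 the 3 were Hoxd3, Haglr and Gm14424, which share the Hoxd3 region. The section by model term (23 alternatives) and each model alone (8 in GermFree and 6 in ConvR mice) had 0 calls throughout. The mouse as a block changed no other call. Among shares that did not pass, the sign of the difference (percentage points) turned in ConvR pairs alone for promoter windows poor in CpG (0.00711) and regions of 5 kb or more (0.222), and for the densest 10% in GermFree pairs alone (-0.082) and with each region limited to its 99th percentile of counts (-0.0195). With each mouse left out, regions of 5 kb or more ran from -0.0982 to 0.1 and the densest 10% from -0.0617 to 0.0916. The cause was not tested. Shares without passing regions were not run, as none passed. Depth, 7 to 23 counts at the median region, limits single regions. Alternatives on gene sums were added after seeing the data.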
